A study of Homo sapiens with 4 samples.

Results

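The genes described here are 50 genes of mitosis and chromosome segregation, read from RNA-seq libraries of NB4-labelled cells with and without GNE-987. They were chosen by function, not by their values: mitotic kinases and cyclins, the spindle checkpoint, kinetochore proteins, the factors that release sister chromatids, condensin, spindle motors, and proteins of cytokinesis, matched by symbol in GENCODE release 44. All 50 were found among the 58735 genes of the table, and 48 of them had a mean of at least 0.5 FPKM (fragments per length of exon and per depth of the library), the level required for a test. NB4 is an acute promyelocytic leukemia cell line, and GNE-987 is a chimeric molecule that brings BET proteins to the VHL ubiquitin ligase for degradation. The comparison asks how BET protein loss alters gene expression in leukemia cells. There were 2 control libraries, titled as controls for GNE-987, and 2 libraries from cells given GNE-987, at 25 nM for 24 h by the study's figure legend. The titles do not say whether the control cells received a vehicle. Nothing says that the 2 libraries of a group came from separate cultures, so P values measure only the spread between these libraries, which may be technical.

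Cells pass through mitosis in a fixed order. CDK1 bound to cyclin B starts it, condensin compacts the chromosomes, kinetochores on the centromeres catch spindle microtubules, and the spindle checkpoint holds back the anaphase-promoting complex until every chromosome is attached. That complex, a ubiquitin ligase, then marks securin and cyclin B for destruction, separase cuts the cohesin rings, and the central spindle guides the cleavage of the cell. Most of these genes are transcribed late in the cell cycle, under the MuvB, B-MYB and FOXM1 factors, which act through a promoter element called CHR, and under NF-Y, which binds CCAAT boxes.

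Steps in the deposited values gave back the depth, which was 19496785 and 19300158 reads for the controls, against 12435120 and 12941911 under GNE-987. The deposited values were found to be scaled as by median-ratio size factors. Scaling to total reads or to GAPDH moved every gene at once, while quantile normalization moved genes by different amounts. Under quantile normalization the log2 fold change of CDC20 went from 0.52 to -0.38 and that of NUF2 from 0.60 to 0.55. Scaling to the total of recovered reads moved the median log2 fold change of all 16668 tested genes by -0.74, quantile normalization by -0.42, and scaling to GAPDH, which itself measured 398 and 432 FPKM in the control and 1501 and 1499 FPKM in the GNE-987 libraries, by -1.77. Directions below are those of the deposited scale unless another is named, and "4 scalings" means the deposited scale and these 3. The labelled cell type was checked against its markers. Of 10 promyelocyte and granulocyte markers, CTSG was listed at 0 in all 4 libraries, ELANE at 0 in both control libraries, and MPO, the main azurophil granule enzyme, at 0.0246 and 0 FPKM in the control and 11.8 and 11.3 FPKM in the GNE-987 libraries. Summed over the list, these markers gave 12.9 and 11.2 FPKM in the control and 39.0 and 37.3 FPKM in the GNE-987 libraries. Of 11 erythroid markers, GATA1 measured 124 and 122 FPKM in the control and 15.1 and 12.5 FPKM in the GNE-987 libraries, and the summed list gave 477 and 444 FPKM against 864 and 748 FPKM. GATA1 thus moved against the sum. At the thresholds given below, 6 of the 11 rose and 4 fell (54.5% and 36.4%), against 33.6% and 24.9% of all tested genes. The control libraries thus held little RNA of the labelled cell type's defining granule genes and much of the erythroid GATA1. These markers moved with the comparison, and their part in the values of the mitotic genes was not tested. In bulk RNA, fewer cells in mitosis and less of a transcript per cell cannot be told apart.

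The 50 genes did not move together. At the thresholds used in the study, P under 0.05 before adjustment together with a change of more than 2-fold or to less than 0.5 of the control, 14 of the 48 tested genes fell (29.2%) and 7 rose (14.6%) by limma on log2(FPKM + 0.1). Among all tested genes 24.9% fell and 33.6% rose, and among protein-coding genes 31.7% fell and 24% rose, so the share that fell was close to that of protein-coding genes. At a Benjamini-Hochberg adjusted P under 0.05 with no fold limit, 23 genes were lower and 19 higher (47.9% and 39.6%), 36.1% and 41.5% of all tested genes, and 47.8% and 35.2% of protein-coding genes. The median of the 48 log2 fold changes was -0.19, compared with 0.17 for all tested genes and -0.29 for protein-coding genes. Without control replicate 1 this median was -0.33, and without control replicate 2 it was -0.06. Under the other 3 scalings the median of the mitotic genes stayed 0.33 to 0.43 below that of all genes, a difference of 0.36 on the deposited scale. Against protein-coding genes it was 0.10 above on the deposited scale and 0.03 to 0.09 above under the other 3. This difference was -0.03 without control replicate 1 and 0.23 without control replicate 2. With no filter on the level of a gene it was -0.22, so its sign was not stable.

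The changes of single genes spread widely around this median. Log2 fold changes ran from -2.50 ± 0.09 (SE) for FOXM1 to 1.72 ± 0.08 for KIF23, while the SE of a single gene was at most 0.18. In 26 genes both GNE-987 libraries lay below both control libraries, in 21 both lay above, and in 3 the groups overlapped. How many of all tested genes were separated in this way was not counted. At the adjusted P, 36.1% of all tested genes were lower and 41.5% higher. The 23 genes that were lower at the adjusted P were lower under all 4 scalings. None of the 19 higher genes was higher under all 4. Each of the other 3 scalings shifted the median of all tested genes downward, by -0.74, -0.42 and -1.77. Such shifts favor lower calls, so this contrast follows in part from the scalings chosen. The same counts over all tested genes were not made. The 7 that rose over 2-fold, CDK1, AURKB, CDCA8, CENPA, KIF2C, NUSAP1 and KIF23, were higher at the adjusted P under 3 of the 4, and under scaling to GAPDH 5 of them were lower while NUSAP1 and KIF23 did not pass. The 6 tested genes that passed in neither direction were all lower under scaling to total reads and under scaling to GAPDH. Scaled to total reads, 24 genes fell and 0 rose at the thresholds, beside 39.9% and 25.1% of all tested genes, and 35 were lower and 7 higher at the adjusted P, beside 50.2% and 30%. Scaled to GAPDH, 39 fell and 0 rose, beside 58.4% and 18.2% of all tested genes. A ratio between 2 genes within a library is not changed by scaling to total reads or to GAPDH, though quantile normalization can change it, so ratios between partners are given below, as descriptions with no test.

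**Figure D1:**
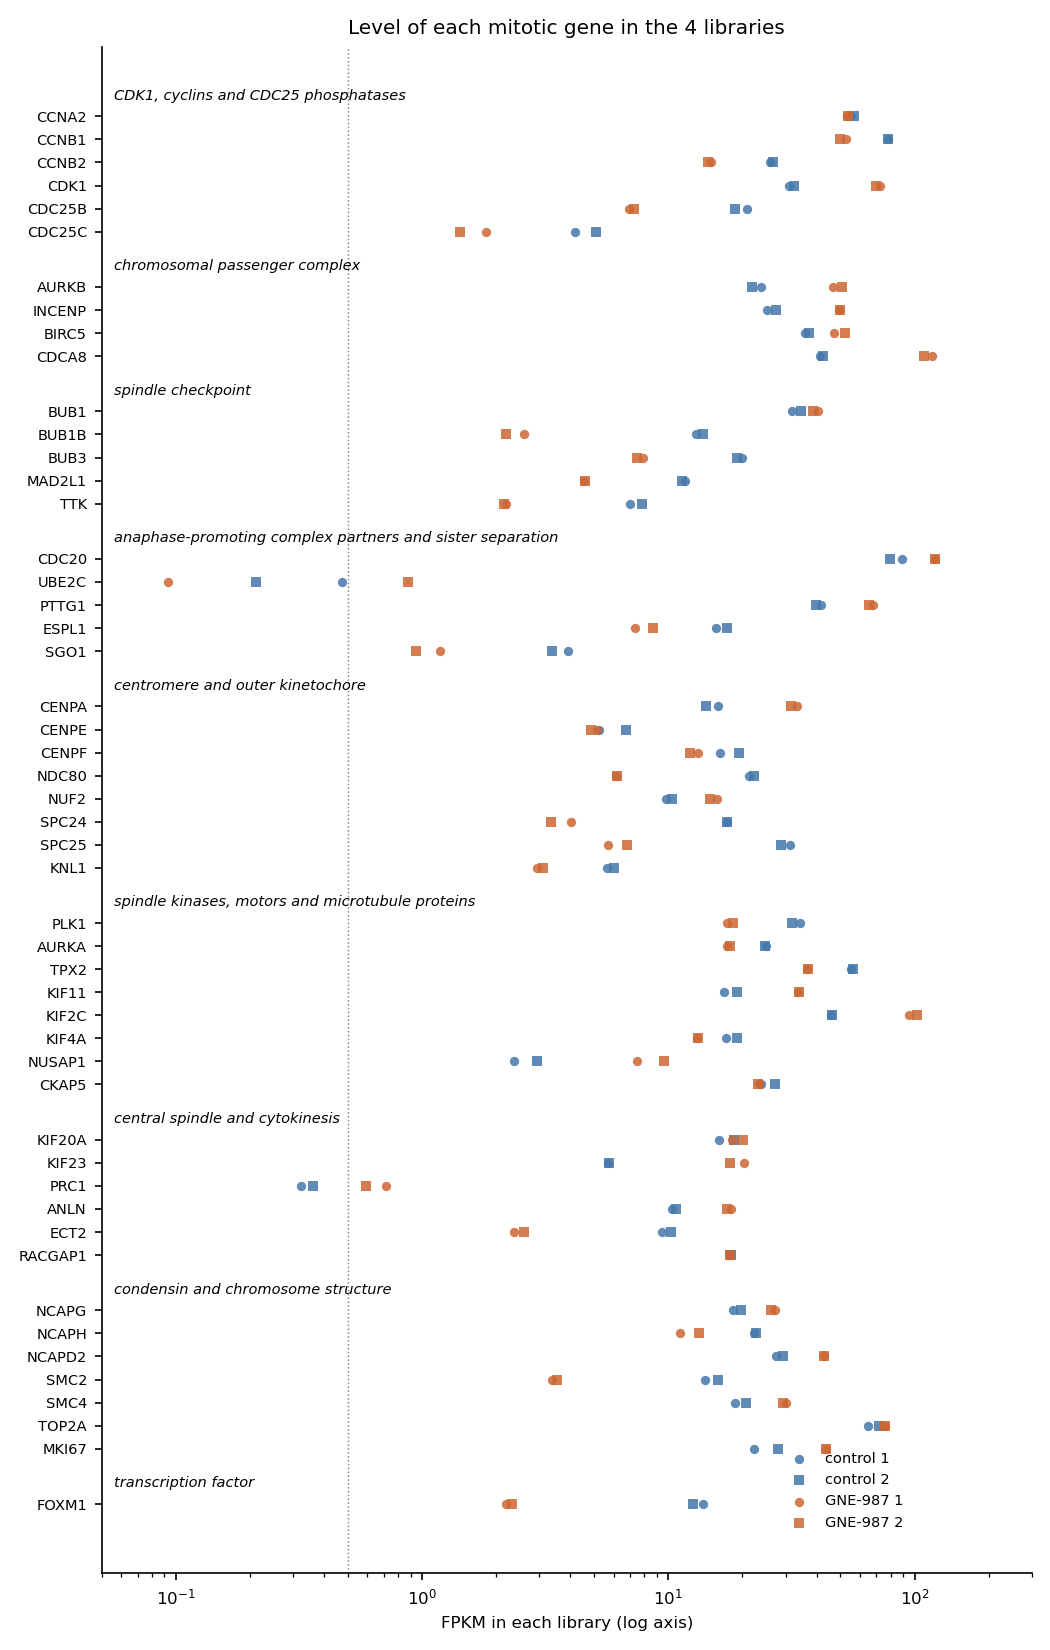
FPKM of each of the 50 mitotic genes on a log axis, grouped by role, with blue for the 2 control and orange for the 2 GNE-987 libraries (circle replicate 1, square replicate 2). The dotted line marks 0.5 FPKM. The 2 libraries of a group lie close together for most genes, UBE2C and PRC1 lie near or under the line, and orange points fall on either side of blue ones within the same role.

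**Figure D2:**
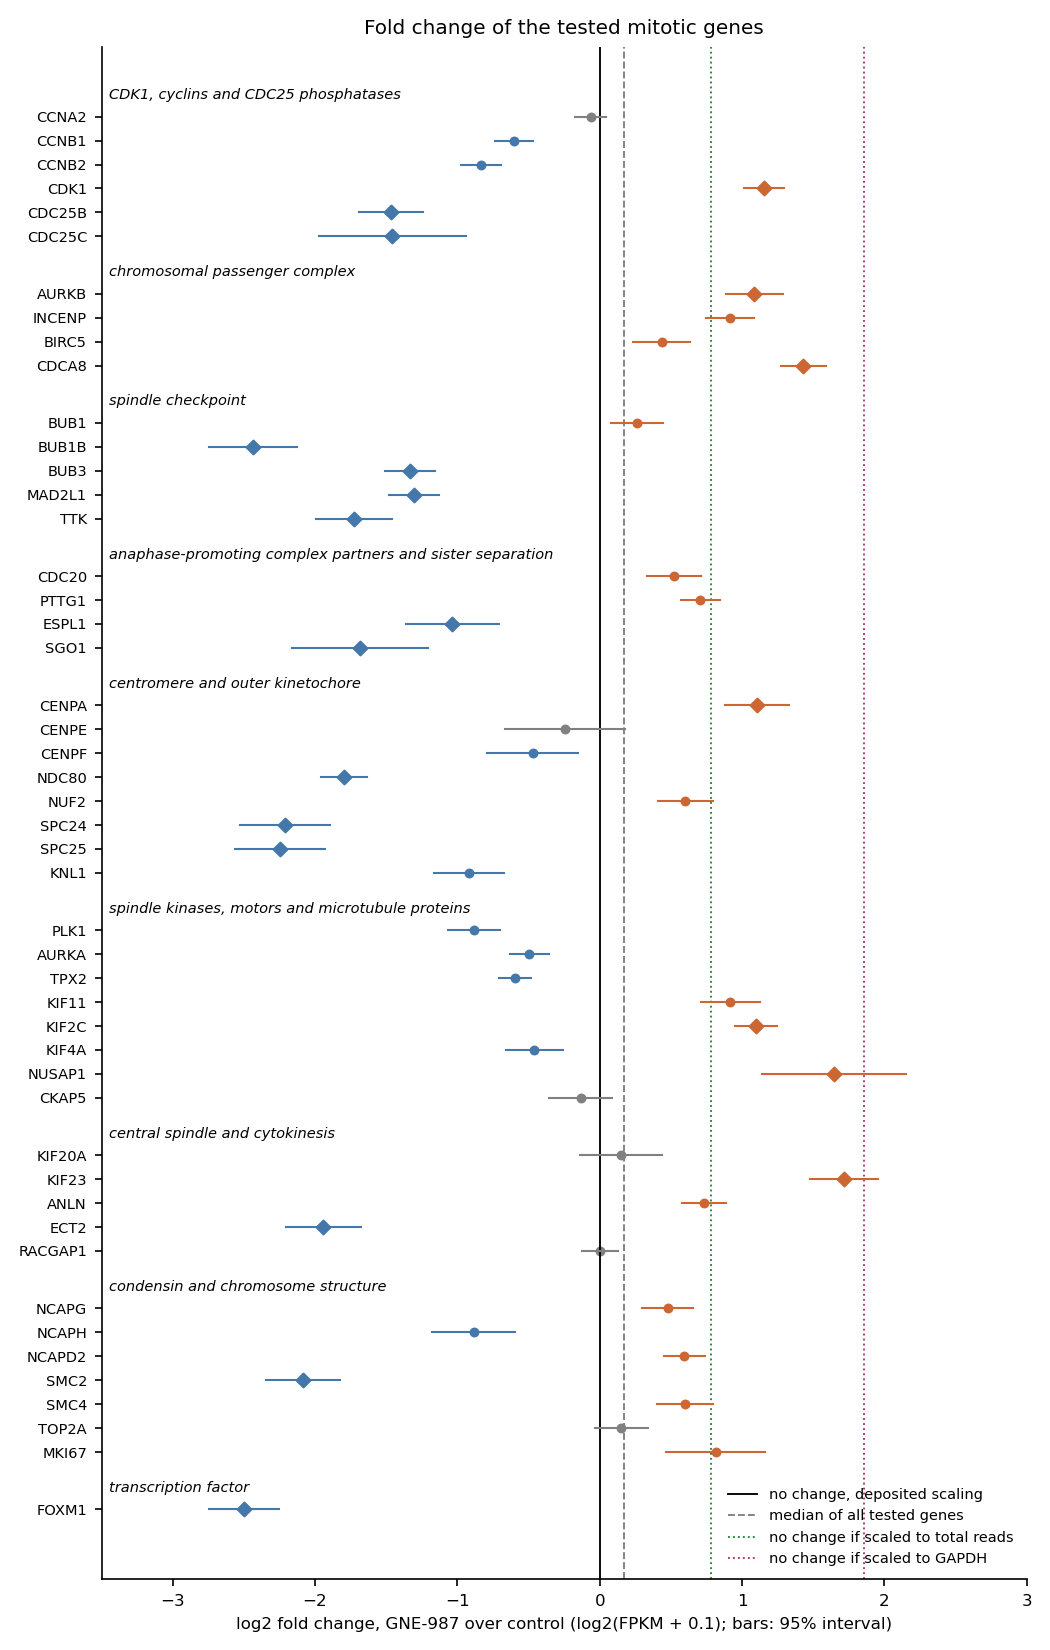
Log2 fold change (GNE-987 over control) of the 48 tested genes with 95% intervals from limma, blue for lower and orange for higher at an adjusted P under 0.05, grey for neither, and diamonds for genes past the study's thresholds. Vertical lines give no change on the deposited scale, the median of all tested genes (0.17), and where no change would lie under scaling to total reads or to GAPDH. All blue genes lie left of every line, while the orange genes lie left of the GAPDH line, so that their direction turns under that scaling.

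Promoters were read for 41 of the 50 genes from RefSeq (build GRCh38.p14), as windows of 300 bases from 250 before to 50 after the transcription start. The 6 printed here belong to 3 pairs of partners with different directions on the deposited scale, chosen after their values were seen: the condensin subunits SMC2, which fell, and SMC4, which was higher, the kinetochore partners NDC80, which fell, and NUF2, which was higher, and cyclin B2 (CCNB2), which was lower, beside its kinase CDK1, which rose. SMC4 was lower under scaling to total reads, where NUF2 did not pass, and SMC4, NUF2 and CDK1 were all lower under scaling to GAPDH. Each runs 5′ to 3′ on the plus strand from 250 bases before to 25 bases after the start. Capitals mark CHR elements, searched as TTTGAA or TTTAAA on either strand, and CCAAT boxes, searched as CCAAT on either strand.
SMC2, chr9:104094059-104094333: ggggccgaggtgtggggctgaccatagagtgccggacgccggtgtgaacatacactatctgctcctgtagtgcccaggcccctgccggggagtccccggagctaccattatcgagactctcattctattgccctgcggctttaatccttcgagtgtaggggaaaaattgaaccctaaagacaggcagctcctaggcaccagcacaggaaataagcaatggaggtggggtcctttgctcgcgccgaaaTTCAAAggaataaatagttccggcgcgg
SMC4, chr3:160399400-160399674: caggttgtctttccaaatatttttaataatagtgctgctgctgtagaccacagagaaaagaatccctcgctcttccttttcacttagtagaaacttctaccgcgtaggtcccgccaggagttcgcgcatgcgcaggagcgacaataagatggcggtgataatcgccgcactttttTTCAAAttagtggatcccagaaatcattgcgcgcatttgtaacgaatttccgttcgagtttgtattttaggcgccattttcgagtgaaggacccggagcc
NDC80, chr18:2571307-2571581: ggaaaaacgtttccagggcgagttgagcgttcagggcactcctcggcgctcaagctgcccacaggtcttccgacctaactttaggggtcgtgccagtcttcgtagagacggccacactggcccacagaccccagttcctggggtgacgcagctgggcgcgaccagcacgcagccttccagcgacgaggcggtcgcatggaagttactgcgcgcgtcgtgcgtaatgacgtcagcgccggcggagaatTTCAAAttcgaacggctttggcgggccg
NUF2, chr1:163321704-163321978: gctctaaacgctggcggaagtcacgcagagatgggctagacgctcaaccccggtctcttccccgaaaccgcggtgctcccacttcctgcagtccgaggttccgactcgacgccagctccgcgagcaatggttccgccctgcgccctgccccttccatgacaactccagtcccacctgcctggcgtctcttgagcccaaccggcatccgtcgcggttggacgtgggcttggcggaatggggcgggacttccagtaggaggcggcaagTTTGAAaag
CCNB2, chr15:59104896-59105170: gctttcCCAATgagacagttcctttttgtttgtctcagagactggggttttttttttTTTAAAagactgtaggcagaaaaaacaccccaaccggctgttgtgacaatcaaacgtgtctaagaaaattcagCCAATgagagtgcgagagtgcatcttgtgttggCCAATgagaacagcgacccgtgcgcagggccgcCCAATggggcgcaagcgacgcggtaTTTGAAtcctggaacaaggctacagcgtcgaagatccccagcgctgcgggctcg
CDK1, chr10:60778081-60778355: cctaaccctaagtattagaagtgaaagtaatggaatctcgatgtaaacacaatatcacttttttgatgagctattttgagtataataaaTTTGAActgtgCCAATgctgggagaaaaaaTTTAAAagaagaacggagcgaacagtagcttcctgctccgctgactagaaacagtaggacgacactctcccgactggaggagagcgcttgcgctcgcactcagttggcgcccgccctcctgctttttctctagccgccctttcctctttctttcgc
The pair of condensin promoters and the pair of kinetochore promoters each held 1 CHR match and 0 CCAAT boxes, although SMC2 and NDC80 fell and their partners were higher on the deposited scale. The match began at position -3 from the start in SMC2 and in NDC80, at -75 in SMC4 and at 17 in NUF2. CCNB2 held 4 CCAAT boxes and CHR matches at -29 and -193, and CDK1 held 1 CCAAT box at -150 between CHR matches at -161 and -131.

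A CHR match was found in 34 of the 41 promoters (82.9%), against 15.6% of the windows of 8968 tested protein-coding genes and 24.3% of all 27305 windows. CCAAT boxes were found in 30 of 41 (73.2%), against 37.5% and 35.7%, and both motifs in 25 (61.0%), against 6.60% and 9.49%. In the windows of 103 other genes of mitosis, the companion genes listed below, these shares were 34.0% for CHR, 49.5% for CCAAT and 20.4% for both. By direction of change, 16 of 18 promoters of genes higher at the adjusted P held a CHR match and 13 of 17 of those lower did, and CCAAT boxes were in 13 of 18 and 12 of 17. The 33 tested genes with a CHR match had a median log2 fold change of 0.15 and ran from -2.43 to 1.72. The 7 without one had a median of -1.46 and ran from -2.21 to 1.09, among them CDC25B and CDC25C, whose windows held neither motif. The difference between these medians was not tested. Genes without a match are those with no TTTGAA or TTTAAA in the first window listed for the gene. Other spellings and other starts were not searched, and 8 of the mitotic genes had several windows. The 7 genes are therefore not shown to lack a CHR element. A match is a description of these letters and not evidence of binding.

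**Figure D3:**
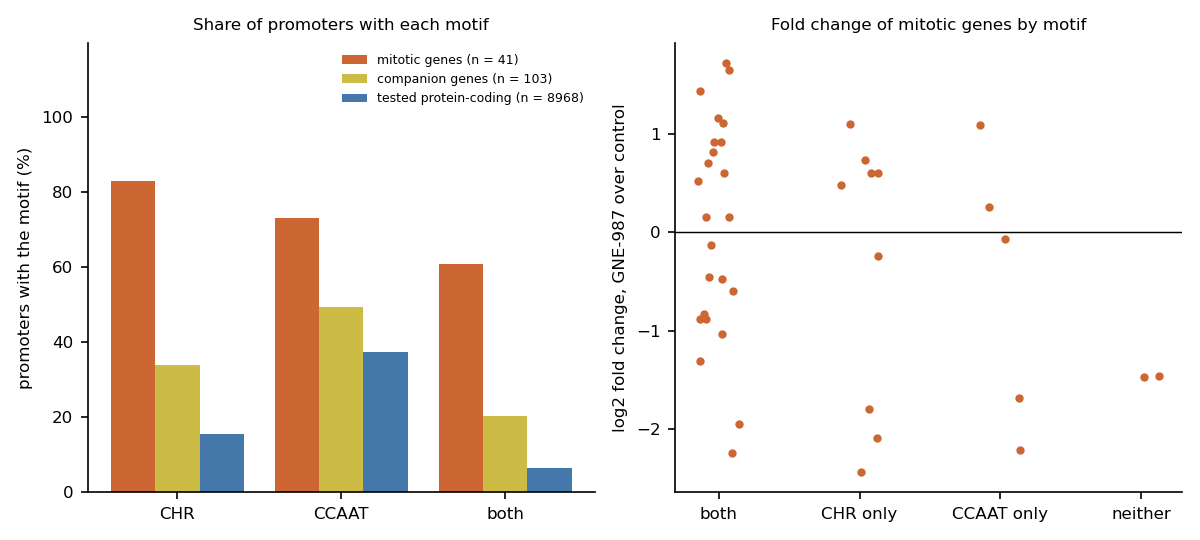
Left, percent of 300-base promoter windows that hold a CHR match, a CCAAT box or both, for 41 mitotic genes, 103 companion genes and 8968 tested protein-coding genes. Right, log2 fold change (GNE-987 over control, deposited scale) of the mitotic genes with a window and a test, by the motifs in the window, each point 1 gene. Genes with both motifs run from -2.25 to 1.72.

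FOXM1, the forkhead factor that drives many late cell cycle genes, fell the most of the 48 genes. It measured 13.8 and 12.6 FPKM in the controls and 2.20 and 2.31 FPKM under GNE-987. The groups were far apart, with a log2 fold change of -2.50 ± 0.09 (adjusted P = 0.000201, limma). The gene lies at chr12:2857680-2877174 in GRCh38 on the minus strand, and 15.9% of its exon bases are shared with ITFG2 on the opposite strand. The counting is not stated to use strand, so reads of a gene and of an overlapping gene on the opposite strand cannot be told apart here.

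CDK1, the cyclins and the CDC25 phosphatases that activate CDK1 went different ways. CDK1 more than doubled while both B-type cyclins and both phosphatases were lower, and under scaling to GAPDH CDK1 was lower too. CDK1 measured 31.05 and 32.6 FPKM in the control and 72.4 and 69.5 FPKM in the GNE-987 libraries (log2 fold change 1.16 ± 0.05, adjusted P = 0.000274, limma). Cyclin B1 (CCNB1) went from 78.02 and 77.9 FPKM to 52.8 and 49.96 FPKM, and cyclin B2 from 25.8 and 26.6 FPKM to 14.9 and 14.4 FPKM. Their log2 fold changes were -0.60 ± 0.05 and -0.83 ± 0.05, each less than 2-fold. Within a library, CDK1 over CCNB1 was 0.398 and 0.418 in the controls and 1.37 and 1.39 under GNE-987. The kinase transcript thus passed from below to above that of its main cyclin. Cyclin A2 (CCNA2), the partner of CDK1 and CDK2 earlier in the cycle, measured 55.4 and 56.8 FPKM and 53.3 and 53.9 FPKM, a log2 difference of -0.06 ± 0.04 that did not pass the test (95% interval -0.18 to 0.05). CDC25B fell from 20.8 and 18.7 FPKM to 6.90 and 7.25 FPKM and CDC25C from 4.18 and 5.09 FPKM to 1.83 and 1.43 FPKM, with log2 fold changes of -1.47 ± 0.08 and -1.46 ± 0.18. The adjusted P of CDC25C was 0.0505 without GNE-987 replicate 2.

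The chromosomal passenger complex, which corrects wrong attachments at the centromere and later marks the midzone, was the 1 role in which every gene was higher, 4 of 4 at the adjusted P, all of them lower under scaling to GAPDH and BIRC5 also under scaling to total reads. On the deposited scale 41.5% of all tested and 35.2% of protein-coding genes were higher at the adjusted P. INCENP did not pass under scaling to total reads (adjusted P = 0.0649, limma), nor BIRC5 under quantile normalization. CDCA8 (borealin), which targets the complex to centromeres, went from 41.2 and 42.6 FPKM to 117 and 109 FPKM (log2 fold change 1.43 ± 0.06, adjusted P = 0.00024, limma). AURKB, its kinase, went from 23.7 and 21.97 FPKM to 46.5 and 50.7 FPKM (1.09 ± 0.07). INCENP, the scaffold that activates the kinase, went from 25.2 and 27.4 FPKM to 49.6 and 49.8 FPKM (0.92 ± 0.06). In these 3 genes, and in BIRC5, both GNE-987 libraries lay above both control libraries, a separation that was not counted over all tested genes. BIRC5 (survivin) changed least, from 36.1 and 37.2 FPKM to 46.9 and 52.3 FPKM (0.43 ± 0.07), with an adjusted P of 0.0511 without control replicate 1. The ratio of CDCA8 to BIRC5 was 1.14 and 1.15 in the controls and 2.50 and 2.08 under GNE-987.

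The spindle checkpoint showed the opposite picture on the deposited scale, with 4 of its 5 genes past the thresholds downward. That is 80.0%, against 24.9% of all tested and 31.7% of protein-coding genes. These 4 genes were lower under all 4 scalings. BUB1B (BubR1), which holds CDC20 inactive, fell from 12.9 and 13.8 FPKM to 2.59 and 2.20 FPKM (log2 fold change -2.43 ± 0.11, adjusted P = 0.000301, limma). TTK (Mps1), the kinase at the top of the checkpoint, fell from 7.02 and 7.84 FPKM to 2.19 and 2.15 FPKM (-1.73 ± 0.10). BUB3 fell from 19.9 and 19.03 FPKM to 7.90 and 7.48 FPKM (-1.33 ± 0.06) and MAD2L1 (MAD2) from 11.7 and 11.3 FPKM to 4.56 and 4.61 FPKM (-1.31 ± 0.06). No GNE-987 library came near a control library in any of these 4 genes. BUB3 and MAD2L1 kept their proportion, with a ratio between 1.62 and 1.73 in all 4 libraries. BUB1, the kinase that recruits the other checkpoint proteins to kinetochores, measured 31.7 and 34.5 FPKM and 40.7 and 38.6 FPKM, slightly higher at the adjusted P (0.26 ± 0.06), a call that was lost without control replicate 1 or without either GNE-987 library (adjusted P between 0.0746 and 0.162) and that turned to lower under scaling to total reads or GAPDH. BUB1 over its paralog BUB1B was 2.45 and 2.50 in the control and 15.7 and 17.5 under GNE-987.

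The targets of the checkpoint and the machinery of sister separation split as well. CDC20, the activator of the anaphase-promoting complex that the checkpoint restrains, was the most abundant transcript of the 50 in both groups, at 88.8 and 79.7 FPKM in the control and 121 and 121 FPKM in the GNE-987 libraries (0.52 ± 0.07), lower under the other 3 scalings, and its adjusted P was 0.0746 and 0.0750 without GNE-987 replicate 1 or 2. CDC20 over BUB1B was 6.87 and 5.78 in the control and 46.6 and 55.0 in the GNE-987 libraries. Securin (PTTG1), the inhibitor of separase, was higher, from 41.6 and 40.00 FPKM to 68.1 and 65.2 FPKM (0.71 ± 0.05), did not pass under scaling to total reads or quantile normalization, and was lower under scaling to GAPDH. Separase itself (ESPL1), the protease that cuts cohesin, fell from 15.6 and 17.3 FPKM to 7.32 and 8.69 FPKM (-1.03 ± 0.12, adjusted P = 0.00237, limma). Securin over separase was 2.67 and 2.31 in the control and 9.30 and 7.50 in the GNE-987 libraries. SGO1 (shugoshin), which protects cohesin at centromeres until anaphase, fell from 3.90 and 3.38 FPKM to 1.19 and 0.947 FPKM (-1.68 ± 0.17), and 15.8% of its exon bases are shared with SGO1-AS1 on the opposite strand. UBE2C, the ubiquitin-conjugating enzyme of the complex, was not tested. It had 14 and 6 reads in the control and 1 and 10 reads in the GNE-987 libraries, and 5 processed pseudogenes carry its name, of which UBE2CP5 had 48 and 28 reads and 17 and 12 reads.

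Of the 8 genes of the centromere and outer kinetochore, 3 fell and 1 rose at the thresholds (37.5% and 12.5%). Among all tested genes 24.9% fell and 33.6% rose, and among protein-coding genes 31.7% and 24%. At the kinetochore, 3 of the 4 subunits of the NDC80 complex fell and the fourth was higher. This rod-shaped complex makes the contact with microtubules, with NDC80 and NUF2 paired at its outer end and SPC24 and SPC25 at its inner end. SPC25 fell from 31.3 and 28.8 FPKM to 5.72 and 6.83 FPKM (-2.25 ± 0.11, adjusted P = 0.000361, limma), and SPC24 from 17.4 and 17.4 FPKM to 4.04 and 3.35 FPKM (-2.21 ± 0.11). NDC80 fell from 21.2 and 22.2 FPKM to 6.15 and 6.20 FPKM (-1.80 ± 0.06). These 3 were lower under all 4 scalings. NUF2 went from 9.77 and 10.3 FPKM to 15.8 and 14.8 FPKM (0.60 ± 0.07, adjusted P = 0.0024, limma), was lower under scaling to GAPDH and did not pass under scaling to total reads. In the control libraries NUF2 was the scarcest of the 4 subunits, and in the GNE-987 libraries it was the most abundant. Its ratio to NDC80 was 0.460 and 0.465 in the control and 2.58 and 2.39 in the GNE-987 libraries. KNL1, the scaffold on which checkpoint proteins gather, was lower, from 5.62 and 6.01 FPKM to 2.94 and 3.11 FPKM (-0.92 ± 0.09). CENPA, the histone H3 variant that marks the centromere, rose from 15.9 and 14.2 FPKM to 33.4 and 31.5 FPKM (1.10 ± 0.08, adjusted P = 0.00078, limma), and was lower under scaling to GAPDH. CENPF was lower at 16.2 and 19.5 FPKM against 13.2 and 12.3 FPKM (-0.47 ± 0.11), a call lost without control replicate 2 or either GNE-987 library (adjusted P between 0.0547 and 0.193), and the motor CENPE, at 5.24 and 6.75 FPKM and 5.13 and 4.87 FPKM, did not pass (95% interval -0.67 to 0.17).

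**Figure D4:**
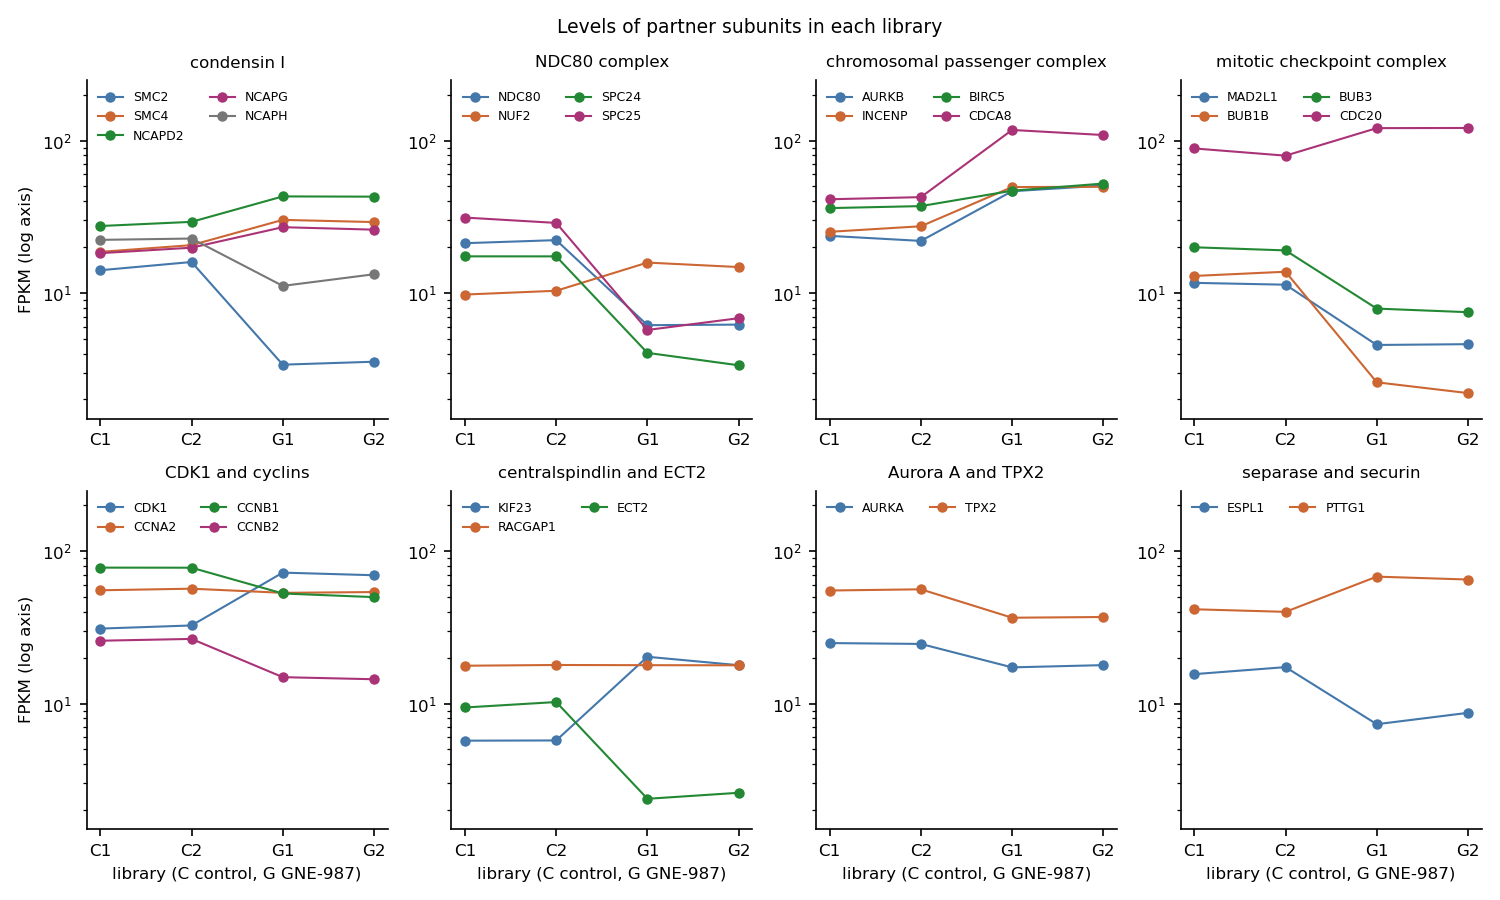
FPKM on a log axis of the subunits of 8 complexes or partner sets in control libraries 1 and 2 (C1, C2) and GNE-987 libraries 1 and 2 (G1, G2), with lines that only join the points of a gene. Lines cross between C2 and G1 for NUF2 and its 3 partners, for CDK1 and cyclin B1, and for KIF23 and ECT2, and such a crossing does not depend on how a library is scaled. AURKA and TPX2 run in parallel.

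Among kinases, motors and microtubule proteins of the spindle, 4 of 8 were lower at the adjusted P under all 4 scalings and 3 were higher on the deposited scale. On that scale 36.1% of all tested genes were lower and 41.5% higher, and of protein-coding genes 47.8% and 35.2%. PLK1, a kinase of centrosome maturation and mitotic entry, went from 34.3 and 31.8 FPKM to 17.4 and 18.4 FPKM (-0.89 ± 0.06). AURKA, the centrosomal Aurora kinase, went from 24.95 and 24.6 FPKM to 17.3 and 17.9 FPKM (-0.49 ± 0.05), and its activator TPX2 from 55.2 and 56.2 FPKM to 36.6 and 36.99 FPKM (-0.60 ± 0.04). These 3 were lower by less than 2-fold. AURKA over TPX2 stayed between 0.438 and 0.483 in all 4 libraries, as BUB3 over MAD2L1 stayed between 1.62 and 1.73. The other ratios above were chosen after their values were seen, so they are no measure of how often partners diverge. The chromokinesin KIF4A was lower at 17.2 and 19.1 FPKM against 13.1 and 13.2 FPKM (-0.46 ± 0.07), with an adjusted P of 0.0819 and 0.0795 without GNE-987 replicate 1 or 2. KIF2C, a kinesin that takes microtubules apart at centromeres, rose from 45.8 and 46.3 FPKM to 95.1 and 102 FPKM (1.10 ± 0.05, adjusted P = 0.00033, limma), and KIF11 (Eg5), which pushes the spindle poles apart, was higher, from 16.9 and 18.9 FPKM to 33.8 and 34.04 FPKM (0.92 ± 0.07). Both were lower under scaling to GAPDH, and KIF11 did not pass under scaling to total reads (adjusted P = 0.107, limma). NUSAP1, which bundles microtubules, rose from 2.37 and 2.92 FPKM to 7.49 and 9.58 FPKM (1.65 ± 0.18), but 86.8% of its exon bases are shared with other genes, mainly a same-strand readthrough gene listed at 0 in all 4 libraries, so the assignment of its reads is uncertain. CKAP5, a microtubule polymerase, measured 23.9 and 27.2 FPKM and 23.3 and 23.2 FPKM and did not pass the test (95% interval -0.36 to 0.09).

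Of the genes of the central spindle and cytokinesis, KIF23 rose the most of all 48 and ECT2 fell. KIF23 (MKLP1) and RACGAP1 form centralspindlin, which recruits ECT2, the exchange factor that activates RhoA at the cleavage furrow. KIF23 rose from 5.71 and 5.73 FPKM to 20.3 and 17.8 FPKM (1.72 ± 0.08, adjusted P = 0.000356, limma) and did not pass under scaling to GAPDH. RACGAP1 measured 17.7 and 17.9 FPKM and 17.9 and 17.8 FPKM, a log2 difference of 0.00 ± 0.05 with a 95% interval of -0.13 to 0.13. ECT2 fell from 9.42 and 10.2 FPKM to 2.37 and 2.60 FPKM (-1.94 ± 0.09, adjusted P = 0.000338, limma). The ratio of KIF23 to RACGAP1 was 0.322 and 0.320 in the control and 1.14 and 1.00 in the GNE-987 libraries, and that of KIF23 to ECT2 went from 0.606 and 0.559 to 8.55 and 6.88. This last ratio changed 13.2-fold between the group means, more than any other partner ratio computed. Anillin (ANLN), a scaffold of the contractile ring, was higher, from 10.4 and 10.7 FPKM to 17.9 and 17.3 FPKM (0.73 ± 0.06), did not pass under scaling to total reads, and was lower under scaling to GAPDH. KIF20A, at 16.01 and 18.4 FPKM and 18.1 and 20.1 FPKM, overlapped between the groups (95% interval -0.14 to 0.44). PRC1, which bundles antiparallel microtubules, was not tested. It had 41 and 44 reads in the control and 33 and 29 reads in the GNE-987 libraries, and shares 61.9% of its exon bases with other genes, mainly a same-strand readthrough gene with 231 and 251 reads in the control and 19 and 22 reads in the GNE-987 libraries.

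The SMC subunits of condensin I, the ring that compacts mitotic chromosomes, went in opposite directions on the deposited scale. SMC2 fell from 14.1 and 15.97 FPKM to 3.38 and 3.54 FPKM (-2.09 ± 0.09, adjusted P = 0.000282, limma) and was lower under all 4 scalings, and the kleisin NCAPH was lower too, from 22.3 and 22.8 FPKM to 11.1 and 13.3 FPKM (-0.89 ± 0.10). SMC4, with which SMC2 forms an obligate dimer, was higher, from 18.6 and 20.6 FPKM to 30.2 and 29.2 FPKM (0.60 ± 0.07), as were NCAPG, from 18.3 and 19.8 FPKM to 27.03 and 26.04 FPKM (0.48 ± 0.06), and NCAPD2, from 27.5 and 29.3 FPKM to 43.04 and 42.9 FPKM (0.60 ± 0.05). These 3 were lower under scaling to total reads or GAPDH, and without GNE-987 replicate 1 or 2 the adjusted P of SMC4 was 0.0599 and 0.0541 and that of NCAPG 0.0632 and 0.0547. SMC4 over SMC2 was 1.32 and 1.29 in the controls and 8.92 and 8.25 in the GNE-987 libraries. On the opposite strand, LCORL shares 33.7% of the exon bases of NCAPG, and TRIM59 is the main gene among those that share 22% of the exon bases of SMC4. TOP2A, the topoisomerase that untangles sister DNA, measured 64.7 and 71.9 FPKM and 75.9 and 75.7 FPKM and did not pass (95% interval -0.03 to 0.34). MKI67 (Ki-67), the coat protein of mitotic chromosomes used as a proliferation marker, was higher, from 22.2 and 27.8 FPKM to 43.7 and 43.8 FPKM (0.81 ± 0.12), with an adjusted P of 0.104 without either GNE-987 library, did not pass under scaling to total reads or quantile normalization, and was lower under scaling to GAPDH.

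The other genes of mitosis were counted in 9 companion lists of 117 genes, 115 of them tested. At the thresholds 42 fell (36.5%) and 16 rose (13.9%), against 24.9% and 33.6% of all tested genes and 31.7% and 24% of protein-coding genes. At the adjusted P 69 were lower (60.0%, against 36.1% of all tested and 47.8% of protein-coding genes), all 69 of them under all 4 scalings. The other 3 scalings shift the median of all tested genes downward, which favors keeping such calls. On the deposited scale 26 were higher (22.6%, against 41.5% and 35.2%), compared with 17 under scaling to total reads and 4 under scaling to GAPDH. Their median log2 fold change was -0.60. Of 15 anaphase-promoting complex subunits and FZR1, its second activator, 11 were lower and 3 higher, from ANAPC13 (-1.86 ± 0.23) and ANAPC1 (-1.78 ± 0.09) to ANAPC11 (1.27 ± 0.08) and ANAPC15 (1.53 ± 0.10). Of 12 genes of the MIS12, SKA and RZZ complexes, which dock the NDC80 complex and the checkpoint, 10 were lower, led by ZW10 (-2.47 ± 0.11) and KNTC1 (-1.76 ± 0.10), while PMF1 (0.43 ± 0.18) did not pass and MIS12 itself was higher (1.16 ± 0.06). Of 16 inner kinetochore CENP proteins, 8 were lower and 4 higher, from CENPO (-2.06 ± 0.14) and CENPI (-1.11 ± 0.12) to CENPH (1.56 ± 0.09) and CENPN (2.54 ± 0.05).

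In cohesin, which condensin resembles in build, both SMC subunits were lower, SMC3 by more than SMC1A. Of 13 tested cohesin genes 9 were lower and 2 higher, from MAU2 (-2.51 ± 0.11) and SMC3 (-2.33 ± 0.06) to CDCA5 (0.77 ± 0.04) and ESCO2 (1.14 ± 0.08). These are 69.2% and 15.4%, against 36.1% and 41.5% of all tested genes and 47.8% and 35.2% of protein-coding genes. SMC3 measured 19.9 and 20.2 FPKM and 3.95 and 3.87 FPKM while its partner SMC1A measured 31.3 and 33.2 FPKM and 25.7 and 25.6 FPKM. SMC1A over SMC3 was 1.58 and 1.65 in the control and 6.51 and 6.62 in the GNE-987 libraries. In condensin II, NCAPD3 (-2.13 ± 0.07) and NCAPG2 (-0.46 ± 0.05) were lower and NCAPH2 (0.13 ± 0.06) did not pass.

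Of 16 other mitotic kinases, phosphatases and checkpoint regulators 10 were lower and 3 higher, from TRIP13 (-2.49 ± 0.14), which takes MAD2 out of its closed form, and PLK4 (-2.05 ± 0.26), the kinase of centriole duplication, to ENSA (1.10 ± 0.05) and WEE1 (1.30 ± 0.09), the kinase that inhibits CDK1. Of 18 other kinesins and spindle proteins 8 were lower and 6 higher, from KIF22 (-2.41 ± 0.11) and KNSTRN (-2.34 ± 0.11) to NUMA1 (1.28 ± 0.07) and KIF18B (1.31 ± 0.08). Of 11 tubulins 4 were lower and 5 higher, from TUBG1 (-1.22 ± 0.09) and TUBB (-0.60 ± 0.05) to TUBB4B (2.44 ± 0.04) and TUBB3 (5.19 ± 0.17), the neuronal beta-tubulin, at 0.0882 and 0.0714 FPKM in the control and 6.78 and 6.11 FPKM in the GNE-987 libraries. Of 11 tested genes of the DREAM and MuvB complex, which represses or activates the late cell cycle genes, 7 were lower and 2 higher. Lower and higher genes were 62.5% and 18.75% of these kinases and regulators, and 44.4% and 33.3% of the kinesins and spindle proteins. They were 36.4% and 45.5% of the tubulins and 63.6% and 18.2% of the DREAM and MuvB genes. Among all tested genes 36.1% were lower and 41.5% higher, and among protein-coding genes 47.8% and 35.2%. E2F4 fell from 44.3 and 42.1 FPKM to 6.44 and 5.57 FPKM (-2.83 ± 0.09) and the pocket protein RBL2 from 6.03 and 6.08 FPKM to 0.997 and 1.13 FPKM (-2.41 ± 0.11), while LIN54, the subunit that binds the CHR element, was higher (0.43 ± 0.13) and MYBL1 rose from 0.222 and 0.106 FPKM to 4.63 and 4.10 FPKM (4.11 ± 0.29). The higher call of LIN54 held on the deposited scale alone, and under each of the other 3 scalings only 1 gene of this list was higher. Of all companion genes, 4 were higher at the adjusted P under all 4 scalings. TUBB3 shares 21.3% of its exon bases with a same-strand protein-coding gene. Exon bases are also shared with other genes in companions such as CENPO (31.6%), NUMA1 (27.3%), ANAPC15 (27.1%) and CENPN (23.1%). The assignment of their reads is therefore uncertain.

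**Figure D5:**
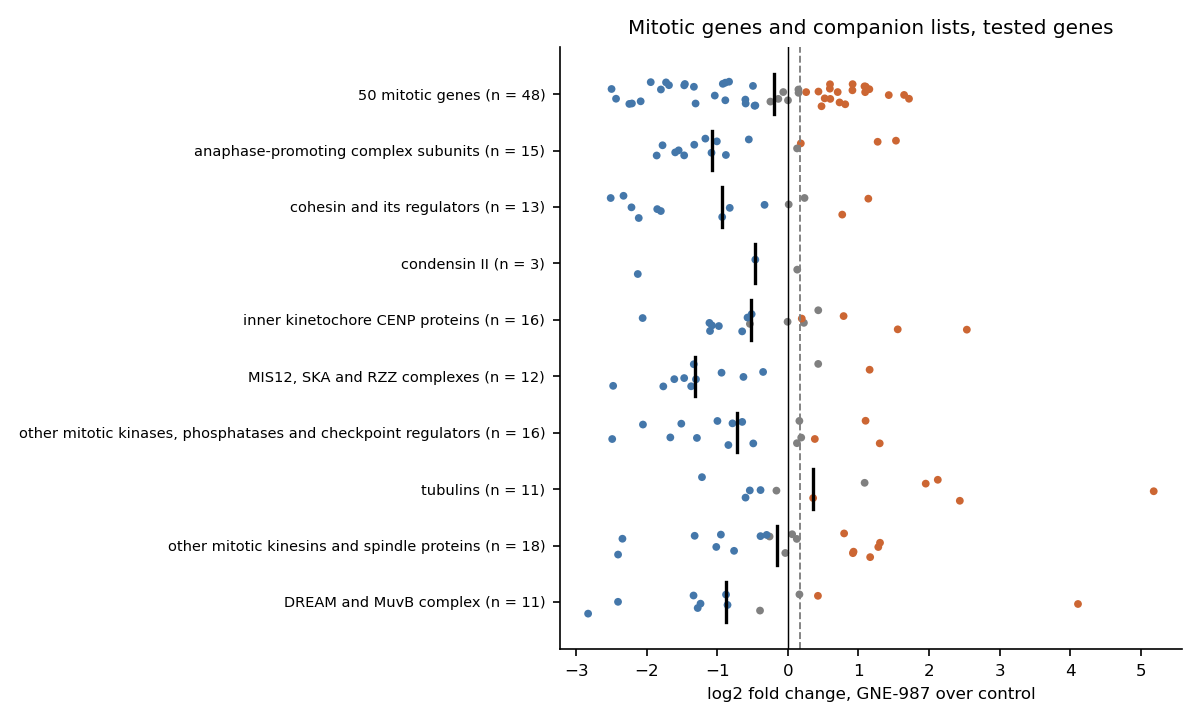
Log2 fold change (GNE-987 over control, deposited scale) of the tested genes among the 50 mitotic genes and the 9 companion lists, each point 1 gene, blue lower and orange higher at an adjusted P under 0.05, grey neither. Black bars give each list's median, and the dashed line the median of all tested genes (0.17). Every companion list except the tubulins has its median below the dashed line, and under scaling to GAPDH most of the orange genes turn lower.

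Gene structure and control level were only weakly related to the changes. Across the 48 tested genes, Spearman's rho between the log2 fold change and exon length was -0.08, with the length of the gene -0.11, with the number of exons of the canonical transcript 0.03 and with the control level 0.25, given as descriptions over genes of the same 4 libraries. Over 10996 tested protein-coding genes these values were -0.18, -0.18, -0.13 and -0.29. Among the 50 genes, 8 shared at least 10% of their exon bases with another annotated gene. Of the 41 tested genes below that limit, 11 fell and 6 rose at the thresholds (26.8% and 14.6%). These shares were 24.9% and 33.6% of all tested genes, and 31.7% and 24% of protein-coding genes. At the adjusted P 19 of the 41 were lower and 16 higher (46.3% and 39.0%). Here the shares were 36.1% and 41.5% of all tested genes, and 47.8% and 35.2% of protein-coding genes.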

How the data were processed

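RNA-seq was performed on total RNA of cells labelled NB4, with 2 control and 2 GNE-987 libraries grouped by their labels. Reads were filtered and aligned by the authors (HISAT2 2.0.5 and hg38 in the submitters' processing notes), who called differential expression with DESeq2. The program that counted reads and its annotation are not given in the sources used here. The deposited values are FPKM per gene and library, and all 4 columns of values were used (0 left out).

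The FPKM values were transformed to log2(FPKM + 0.1), so fold changes of low genes are understated. Genes with a mean under 0.5 FPKM were left out, and limma 3.58.1 (R 4.3.3) was fitted to the other 16668 genes (empirical Bayes with an intensity trend, two-sided), with Benjamini-Hochberg adjustment over all of them. Thresholds were those of the study's methods. The median absolute log2 difference between the 2 libraries of a group was 0.12 in the control pair and 0.18 in the GNE-987 pair.

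Of the identifiers, 99.1% were found in GENCODE release 44. Read numbers were worked back from steps in the FPKM values, within 0.01 of a whole read. Of 32895 genes above 0, 53.0% came out whole at the GENCODE exon length and the others at another whole length. A count test was therefore only an alternative.

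Promoter sequences came from RefSeq (GRCh38.p14), using the first window listed for each gene. Several windows were listed for 8 of the mitotic genes. BIRC5, BUB3, TTK, UBE2C, KNL1, AURKA, TPX2, RACGAP1 and FOXM1 had none in the table used here.

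All 50 genes are named, with the 2 lowest and 2 highest fold changes of each companion list. The text also names SMC1A, CTSG, ELANE, MPO, GATA1, RBL2, LIN54 and a few others by that rule or as partners and markers. The partner ratios printed were chosen after their values were seen. The genes, lists and tests were chosen with earlier results of these data known. Alternatives were scaling to GAPDH, to total reads, by median ratios and by quantiles, other pseudocounts (1 and 0.01), testing every gene or those with means of 1 FPKM or more, a test against a fold change of 2, limma-voom on recovered reads, blocking on the replicate number, and omitting libraries singly.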

Additional observations from a re-analysis of the deposited data

How the results depend on the processing

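Scaling set the counts more than any other choice. Scaled to GAPDH, 39 mitotic genes fell and 0 rose at the thresholds, 46 were lower and 0 higher at the adjusted P, the median log2 fold change was -2.02, and 9738 of all genes fell and 3031 rose. Scaled to total reads, these values were 24, 0, 35, 7, -0.96 and, for genes that fell, 6655. With limma-voom on recovered reads they were 24, 0, 35, 7, -0.97 and 6770. With quantile normalization 2 mitotic genes rose, beside 4235 of all genes, and the median was -0.57. Against a fold change of 2, 4 mitotic genes rose, beside 4837 of all genes, and 12 were lower and 4 higher at the adjusted P. Shares of all tested genes at the adjusted P were computed only for the deposited scale and for scaling to total reads. Without a filter the median was -0.10 and 8757 of all genes rose, and with a pseudocount of 1 the median was -0.17. Median-ratio scaling left every value as deposited, since the deposited values already carry it.

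Log2 fold changes reversed as follows. Scaled to GAPDH they were CDK1 -0.70, AURKB -0.76, INCENP -0.93, BIRC5 -1.42, CDCA8 -0.42, BUB1 -1.59, CDC20 -1.33, PTTG1 -1.14, CENPA -0.74, NUF2 -1.24, KIF11 -0.93, KIF2C -0.76, NUSAP1 -0.17, KIF20A -1.69, KIF23 -0.12, ANLN -1.11, RACGAP1 -1.84, NCAPG -1.37, NCAPD2 -1.25, SMC4 -1.25, TOP2A -1.70 and MKI67 -1.04. Scaled to total reads they were BIRC5 -0.34, BUB1 -0.52, CDC20 -0.26, PTTG1 -0.073, NUF2 -0.17, KIF20A -0.63, ANLN -0.042, RACGAP1 -0.77, NCAPG -0.30, NCAPD2 -0.18, SMC4 -0.18 and TOP2A -0.63. With limma-voom the same 12 reversed, with RACGAP1 at -0.78 and the other values as for total reads. With quantile normalization BIRC5 was -0.073, BUB1 -0.17, CDC20 -0.38 and TOP2A -0.60. Scaling to GAPDH or to total reads multiplies all values of a library by 1 factor, which shifts all genes.

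Leaving out each library in turn gave 13 to 15 genes that fell and 7 to 8 that rose, 20 to 24 lower and 14 to 20 higher at the adjusted P, a median from -0.33 to -0.057, and 3714 to 4101 genes that fell and 4978 to 5374 that rose among all. Where this left 1 library in a group, it was assumed to vary like the other group. The replicate number as a block kept 14 genes that fell, 7 that rose, 23 lower and 19 higher at the adjusted P, and changed no call of a mitotic gene. The numbers do not pair the libraries (correlation of the deviations 0.0054). Precision is limited by 2 libraries a group and, for UBE2C and PRC1, by under 50 reads in each library.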
